A study of Sus scrofa with 120 samples.

Results

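The interleukin-1 receptors and the NF-kB feedback genes were followed in pig chondrocytes under chemical, inflammatory and mechanical stimuli: IL1R1, IL1R2, IL1RAP, NFKBIA, NFKBIZ, TNFAIP3, NFKB1, NFKB2, RELB and IRAK3. They were found by gene symbol and make up 10 of the 31907 gene identifiers in the count table.

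Interleukin-1 acts through a pair of receptor chains, the signalling receptor IL1R1 and its co-receptor IL1RAP, while IL1R2 binds the same ligand without a signalling domain and so serves as a decoy. The signal frees NF-kB dimers (built from NFKB1, NFKB2, REL, RELA and RELB products) from their inhibitor IkB-alpha, the product of NFKBIA. NF-kB then induces genes that end the signal, NFKBIA itself and TNFAIP3 (A20, a ubiquitin-editing enzyme that stops signalling to the IkB kinase). It also induces NFKBIZ, a nuclear IkB that both assists and limits NF-kB at its targets. IRAK3 (IRAK-M) is a kinase homologue that holds back the relay below the IL-1 and Toll-like receptors. In cartilage, this system is known for driving matrix-degrading enzymes and inflammatory mediators in osteoarthritis.

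RNA was sequenced from primary chondrocytes of pig femoral cartilage, cast in 2% agarose to form engineered cartilage, in 120 libraries of 30 groups with 4 libraries each. The TRPV4 experiment had 48 libraries in 12 groups and addressed the responses to loading, to IL-1 and to drugs acting on TRPV4, a calcium channel that takes part in sensing mechanical load. The PIEZO1 experiment had 72 libraries in 18 groups and addressed the responses to strong compression and to opening of PIEZO1, a mechanically gated channel. Whether the 4 libraries of a group stem from different animals is not stated in the labels, and the p-values therefore cover only library-to-library spread, which may be technical.

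In the TRPV4 experiment the constructs received DMSO vehicle without loading, IL-1 at 1 ng/mL (named IL-1a in the sample protocols), the TRPV4 agonist GSK101 at 1 nM, the TRPV4 antagonist GSK205 at 10 uM, cyclic compressive loading for 3 h (10% deformation, 1 Hz), or loading with GSK205. In the PIEZO1 experiment the cells had no transfection (NT), a control siRNA without a target (siNTC) or siRNAs to PIEZO1 (siPIEZO1), and the constructs then received DMSO vehicle, the PIEZO1 agonist Yoda1 at 5 uM, or 1 compression to 80% deformation. Both experiments were harvested 3 h and 9 h after the stimulus began. The cells of the TRPV4 experiment carry the genotype label WT/NT. For GSK205 and Yoda1 the uM doses of the series text are given; the protocols of the samples have mM. No group received IL-1 together with a channel agonist.

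Library totals ran from 20651530 to 80223797 counts in the TRPV4 experiment and from 36807992 to 66240251 in the PIEZO1 experiment. For the chondrocyte label, 9 cartilage markers were summed, and their level was 68960 to 131400 CPM (read counts relative to the scaled library total) across TRPV4 libraries and 14820 to 42320 across PIEZO1 libraries. The 6 fibroblast and synovial markers summed to 441 to 1211 CPM across TRPV4 libraries and to 1577 to 10810 CPM across PIEZO1 libraries. The 9 leukocyte markers summed to 27.8 to 103 CPM across TRPV4 libraries and 7.22 to 58.7 CPM across PIEZO1 libraries, with LYZ the one member at 0 in every library. The libraries of the PIEZO1 experiment varied more between replicates: edgeR's common biological coefficient of variation was 0.282 at 3 h and 0.300 at 9 h, against 0.107 and 0.0874 in the TRPV4 experiment. The experiments also used different library kits, so levels are compared within an experiment only. In these bulk samples fewer expressing cells and less RNA per cell cannot be told apart.

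All coordinates are on Sscrofa11.1. IL1R1 (ENSSSCG00000008162) lies on chromosome 3 at 52192912 to 52334734, and IL1R2 (ENSSSCG00000028331) follows it at 52367434 to 52406393, leaving 32699 bp between them. IL1RAP (ENSSSCG00000021206) and NFKBIZ (ENSSSCG00000011951) are both on chromosome 13, at 127933239 to 128071984 and 157261419 to 157273119. NFKBIA (ENSSSCG00000001952) is on chromosome 7 at 64508119 to 64510754 and TNFAIP3 (ENSSSCG00000004154) on chromosome 1 at 26474158 to 26489771. NFKB1 (ENSSSCG00000030957) is on chromosome 8 at 118391010 to 118478927, NFKB2 (ENSSSCG00000010580) on chromosome 14 at 113406412 to 113414177, and RELB (ENSSSCG00000038879) on chromosome 6 at 51444670 to 51480350. IRAK3 (ENSSSCG00000000475) is on chromosome 5 at 30524704 to 30601067. Uncharacterised RefSeq genes overlap IL1R1, NFKBIA, NFKB2 and RELB, and without a stated strand setting for the counting, reads of overlapping genes cannot be told apart.

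Values below are library levels in CPM after TMM scaling, with group means ± SD (n = 4), and log2 fold changes ± standard error from edgeR's quasi-likelihood test. A gene was called when its Benjamini-Hochberg adjusted p over all tested genes was under 0.05. Each of the 10 genes passed the filter on low counts in each model. IL1R2 did so in the TRPV4 experiment through its reads in the GSK101 and IL-1 libraries, since it had only 0 to 12 reads in any DMSO, loading or GSK205 library; its read counts are therefore given. A gene that passed through its treated libraries had to differ from vehicle, so the IL1R2 differences from DMSO are given as a description, with their standard errors.

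IL-1 and GSK101 both raised most of the 10 genes, but different ones by large amounts. With IL-1 NFKBIA, NFKBIZ and TNFAIP3 rose 18.6-fold to 25.1-fold within 3 h. The decoy receptor gene IL1R2 was not called at 3 h of IL-1. At 9 h it averaged 1.22 CPM with IL-1, against 0.245 CPM in DMSO and 28.6 CPM with GSK101. With GSK101 NFKBIA, NFKBIZ and TNFAIP3 rose far less and IL1R2 was a fitted 118-fold higher by 9 h. At 3 h of IL-1, 7 of the 10 genes were called, each higher, while 32.2% of the 16562 genes tested were called and 18.5% were called higher. At 9 h of IL-1 each of the 10 was called (65.1% of all genes tested), 9 higher (30.6% of all) and IL1R1 lower (34.5% of all). GSK101 raised all 10 at 3 h (40.0% of all genes called, 22.0% higher) and 9 at 9 h (62.3% called, 29.3% higher), with IRAK3 lower (33.0% of all). With IL1R2 set aside, 7 of 9 and 9 of 9 were called with IL-1 and 9 of 9 at both times with GSK101. The background at 9 h is so high that the number of genes called says little about the list, and the sizes of the changes are what follows. The IL-1 and GSK101 comparisons share their DMSO libraries.

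**Figure D1:**
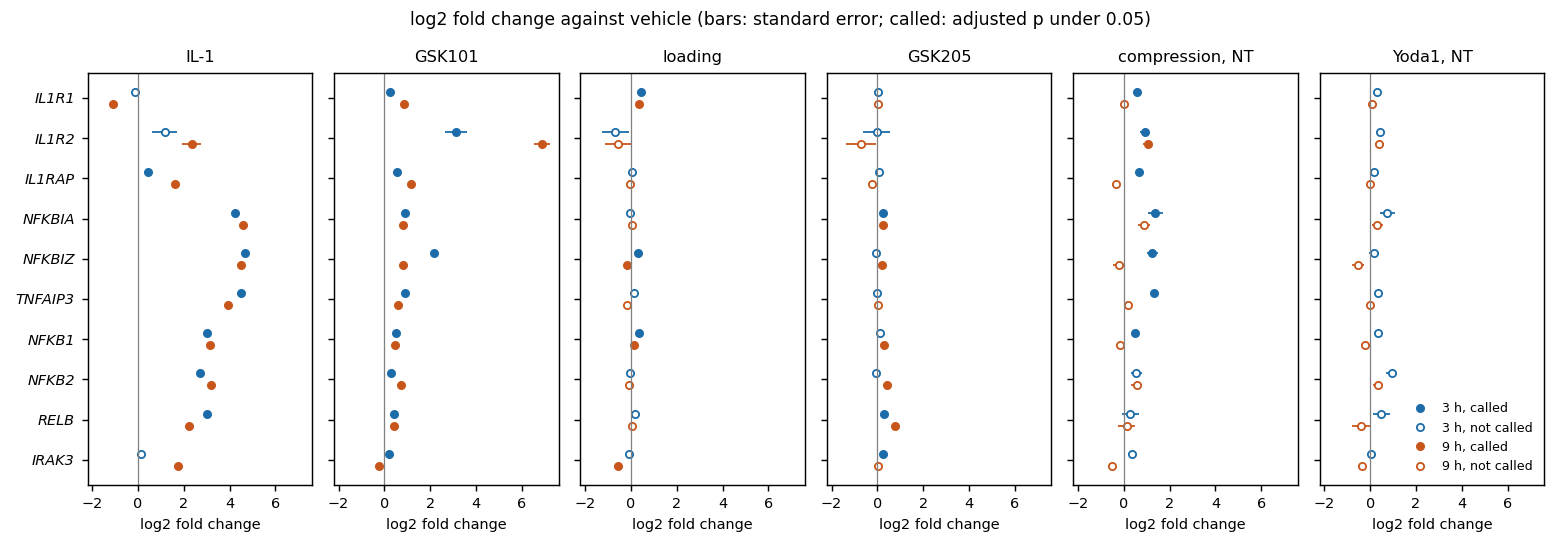
Log2 fold change (x axis, no unit) of each of the 10 genes (rows) against vehicle for IL-1, GSK101, loading and GSK205 in the TRPV4 experiment and for compression and Yoda1 in non-transfected cells of the PIEZO1 experiment; blue marks 3 h, orange 9 h, filled points were called and bars are standard errors. IL-1 points for NFKBIA, NFKBIZ, TNFAIP3 and the subunit genes lie between 2.22 and 4.65. The GSK101 point for IL1R2 at 9 h lies at 6.89 and the IL-1 point for IL1R1 at 9 h lies at -1.08.

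Among the receptors, the decoy IL1R2 was nearly silent without a stimulus in the TRPV4 experiment. That was not so in the PIEZO1 experiment, with its other kit, where IL1R2 averaged 12.1 CPM in NT vehicle at 3 h. In DMSO at 3 h of the TRPV4 experiment the IL1R2 level was 0.227, 0.161, 0.174 and 0.128 CPM, which is 4 to 5 reads per library. GSK101 at 3 h gave 1.34, 1.43, 1.58 and 1.55 CPM (77 to 119 reads). All GSK101 libraries lay above all DMSO libraries, a log2 fold change of 3.11 ± 0.49. The GSK101 libraries at 3 h were also the deepest of the experiment, at 62677053 to 80223797 counts against 20651530 to 29904509 in DMSO, and had fewer small-RNA counts (1.83% to 3.02% against 4.64% to 9.32%). With the libraries at 3 h thinned to one total, an alternative added after the data were seen, each of the 10 genes kept its call or lack of one in the 8 contrasts at that time.

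By 9 h of GSK101 the level of IL1R2 had reached 26.1, 29.3, 28.3 and 30.8 CPM (496 to 835 reads), against 0.213, 0.0971, 0.391 and 0.281 CPM (4 to 11 reads) in DMSO. The groups were far apart, with a fitted log2 fold change of 6.89 ± 0.34, or 118-fold, whose size rests on the few DMSO reads. The GSK101 effect on IL1R2 was larger at 9 h than at 3 h by 3.81 ± 0.75 on the log2 scale. IL-1 itself gave IL1R2 levels of 0.446, 0.498, 0.178 and 0.418 CPM at 3 h (8 to 22 reads). Replicate 3 of those lay within the DMSO range, and the change was not called (1.16 ± 0.53, adjusted p = 0.094), though without that library it was (1.42, adjusted p = 0.043). At 9 h of IL-1 the levels were 0.919, 1.26, 1.49 and 1.21 CPM (28 to 60 reads), all above DMSO, with a difference of 2.34 ± 0.41. GSK101 exceeded IL-1 for IL1R2 by 1.95 ± 0.43 at 3 h and by 4.55 ± 0.27 at 9 h (adjusted p = 7.1e-16 at 9 h). At 3 h IL1R2 had 77 to 119 reads with GSK101 and 8 to 22 with IL-1. It passed the filter at that time largely through the GSK101 libraries, so the 3 h difference is given as a description.

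The signalling receptor IL1R1 moved in opposite directions under the 2 agents. DMSO libraries at 9 h had IL1R1 levels of 25.4, 22.3, 22.9 and 27.4 CPM. With IL-1 they were 12.4, 11.8, 12.3 and 10.99 CPM, and with GSK101 42.5, 47.9, 49.1 and 41.7 CPM. Neither treated group overlapped DMSO: IL-1 lowered IL1R1 to 0.474 of its level (-1.08 ± 0.08, adjusted p = 6.5e-13) and GSK101 raised it 1.82-fold (0.86 ± 0.08, adjusted p = 4.9e-11). The direct contrast of GSK101 with IL-1 was 1.94 ± 0.08 (adjusted p = 1.8e-19).

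At 3 h the effects on IL1R1 were small or not called. IL-1 libraries held 22.4, 20.5, 21.1 and 20.7 CPM of IL1R1 and DMSO libraries 23.7, 21.9, 24.5 and 23.2 CPM, overlapping ranges with no call (-0.13 ± 0.08, adjusted p = 0.23). GSK101 gave 25.1, 26.4, 27.8 and 29.6 CPM, all above DMSO (0.24 ± 0.08, adjusted p = 0.011), a call lost without its replicate 4 (0.20, adjusted p = 0.051). From 3 h to 9 h the IL-1 effect fell by 0.91 ± 0.12 (adjusted p = 5.2e-09) and the GSK101 effect grew by 0.66 ± 0.11 (adjusted p = 2.0e-06).

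The co-receptor IL1RAP rose under both agents and at both times. Its DMSO levels at 9 h were 13.0, 15.3, 17.4 and 16.4 CPM. IL-1 brought it to 51.3, 49.1, 48.1 and 44.5 CPM and GSK101 to 34.6, 39.02, 34.1 and 32.1 CPM, with no overlap among the 3 groups. The rises were 1.61 ± 0.08 for IL-1 (adjusted p = 2.0e-17) and 1.15 ± 0.09 for GSK101 (adjusted p = 2.3e-13), and GSK101 stayed below IL-1 by -0.46 ± 0.08 (adjusted p = 1.1e-05). At 3 h the rises were smaller, 0.45 ± 0.10 with IL-1 and 0.57 ± 0.10 with GSK101, and the effect grew by 9 h by 1.201 ± 0.14 for IL-1 and 0.62 ± 0.14 for GSK101. Thus at 9 h of IL-1 the co-receptor was 3.05-fold higher while its partner IL1R1 was lower.

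The balance between decoy and signalling receptor was measured as the log2 ratio of IL1R2 to IL1R1 counts in each library, with 0.5 added to each count. The ratio compares a library with another, not the 2 genes with each other, since their lengths differ. Its mean at 3 h was -6.96 ± 0.31 in DMSO, -5.82 ± 0.67 with IL-1 and -4.20 ± 0.05 with GSK101. At 9 h it was -6.70 ± 0.77, -3.28 ± 0.31 and -0.66 ± 0.16. GSK101 exceeded DMSO by 2.75 at 3 h and 6.04 at 9 h, IL-1 exceeded DMSO by 3.42 at 9 h, and GSK101 exceeded IL-1 by 1.62 and 2.62. The sizes depend on the amount added, since DMSO libraries had 4 to 11 IL1R2 reads: with 5 added to each count they were 1.90, 5.35, 2.86, 1.23 and 2.50, with the same p-values.

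No library overlapped between groups in those 5 comparisons. Each had p = 0.0286 by an exact two-sided permutation test (adjusted p = 0.0343 over the 6 ratio comparisons), the smallest p that 4 against 4 libraries allow. The ratio carries over the IL1R2 differences from DMSO given above. Its differences from DMSO are therefore likewise a description and no separate support for them. The IL-1 difference at 3 h, 1.13, had p = 0.0571 by the same exact test. The loading and GSK205 groups had mean ratios from -8.59 to -7.22, below the DMSO means, with a wide spread where a library had no IL1R2 read.

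**Figure D2:**
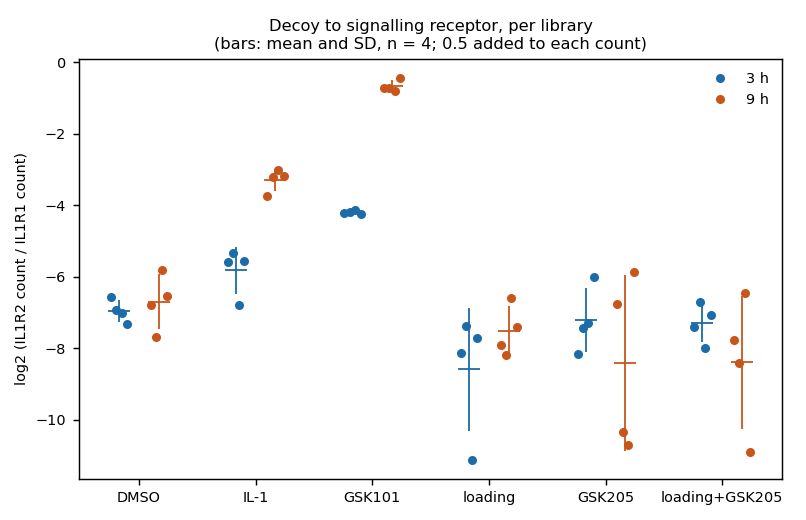
Log2 ratio of IL1R2 to IL1R1 counts (y axis, 0.5 added to each count) in each library of the 6 TRPV4-experiment treatments (x axis), at 3 h (blue) and 9 h (orange); horizontal bars are means and vertical bars SDs (n = 4). The 4 GSK101 libraries at 9 h average -0.66 and lie above all others, and the lowest points in the loading and GSK205 groups are libraries with 0 IL1R2 reads.

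The IkB proteins NFKBIA and NFKBIZ and the A20 gene TNFAIP3 carried the largest IL-1 changes of the list. In DMSO at 3 h the level of NFKBIA was 49.9, 62.4, 50.7 and 59.0 CPM. IL-1 at 3 h gave 988, 1061, 1072 and 981 CPM and GSK101 109, 97.0, 95.1 and 108 CPM. The 3 groups did not overlap: IL-1 raised NFKBIA 18.6-fold (4.22 ± 0.08, adjusted p = 6.1e-28) and GSK101 raised it 1.87-fold (0.90 ± 0.07, adjusted p = 1.4e-11). At 9 h it stood at 1253, 1253, 1257 and 1205 CPM with IL-1, against 53.8, 49.5, 47.4 and 53.4 CPM in DMSO and 99.1, 89.6, 84.4 and 87.0 CPM with GSK101. The IL-1 effect on NFKBIA was higher at 9 h than at 3 h by 0.40 ± 0.10 (adjusted p = 0.00093), and the GSK101 effect differed by -0.06 ± 0.10, which was not called.

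NFKBIZ, whose product acts in the nucleus, had a larger GSK101 rise at 3 h than NFKBIA and TNFAIP3. At 9 h its rise was close to that of NFKBIA (0.79 ± 0.05 and 0.79 ± 0.06). Its DMSO levels at 3 h were 51.3, 52.5, 54.7 and 48.9 CPM. GSK101 gave 226, 221, 235 and 227 CPM at 3 h, well clear of DMSO (2.15 ± 0.06, 4.45-fold, adjusted p = 5.6e-23). At 9 h GSK101 libraries had 91.9, 83.9, 89.1 and 93.6 CPM and DMSO libraries 51.2, 50.0, 49.7 and 52.2 CPM. The rise was still called (0.79 ± 0.05, adjusted p = 8.3e-15), but it had shrunk by -1.31 ± 0.08 on the log2 scale (adjusted p = 7.6e-20). With IL-1, NFKBIZ was at 1302, 1329, 1286 and 1254 CPM at 3 h (4.65 ± 0.07, 25.1-fold, adjusted p = 2.4e-30) and at 1167, 1182, 1126 and 1151 CPM at 9 h (4.48 ± 0.06). The change of the IL-1 effect between times, -0.13 ± 0.08, was not called (adjusted p = 0.19).

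TNFAIP3 had a larger IL-1 rise at 3 h than at 9 h. From 15.1, 13.8, 14.9 and 11.08 CPM in DMSO at 3 h, IL-1 brought it to 303, 317, 305 and 295 CPM (4.49 ± 0.09, adjusted p = 2.2e-27). By 9 h of IL-1 it was at 218.7, 219.8, 221.2 and 225.3 CPM against 13.2 to 16.1 CPM in DMSO (3.92 ± 0.08), and the IL-1 effect had fallen by 0.54 ± 0.11 (adjusted p = 0.00013). GSK101 gave 27.7, 20.9, 24.5 and 26.5 CPM at 3 h, all above DMSO (0.88 ± 0.09, adjusted p = 9.1e-10), and 19.3 to 25.1 CPM at 9 h (0.60 ± 0.08). The GSK101 effect on TNFAIP3 differed between the times by -0.23 ± 0.12 (adjusted p = 0.11), which was called only without GSK101 replicate 2 at 3 h or replicate 3 or 4 at 9 h (adjusted p 0.025 to 0.047). Direct contrasts placed GSK101 below IL-1 for NFKBIA, NFKBIZ and TNFAIP3 at both times. In that order the differences were -3.32, -2.50 and -3.61 at 3 h and -3.79, -3.69 and -3.31 at 9 h, each with an adjusted p of 4.95e-25 or lower. Those contrasts called 8 of the 10 genes at 3 h (41.5% of all genes) and 10 at 9 h (53.8%); at both times the genes called higher with GSK101 were IL1R1 and IL1R2.

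**Figure D3:**
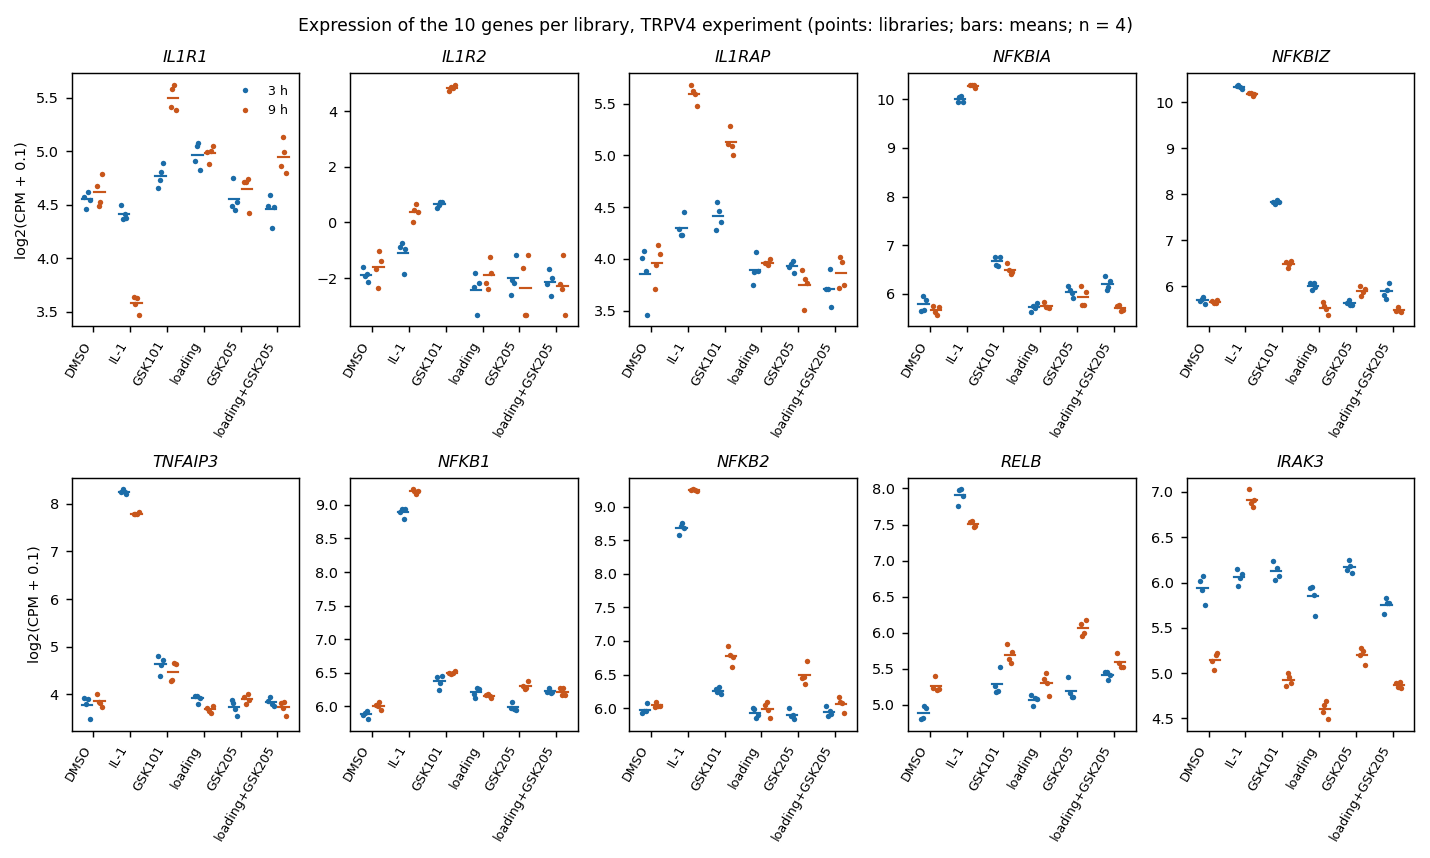
Level of each of the 10 genes (panels) in each library of the TRPV4 experiment, as log2 of CPM with 0.1 added (y axis), by treatment (x axis) at 3 h (blue) and 9 h (orange), with bars at group means (n = 4); the panels have separate y scales. NFKBIA, NFKBIZ, TNFAIP3, NFKB1, NFKB2 and RELB stand highest with IL-1, IL1R2 and IL1R1 stand highest with GSK101 at 9 h, and IRAK3 falls from 3 h to 9 h except with IL-1.

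The NF-kB subunit genes NFKB1, NFKB2 and RELB, which encode precursors and partners of the dimers, rose by similar amounts at 3 h of IL-1. At 9 h RELB rose less than NFKB1 and NFKB2. NFKB1 went from 58.5, 59.9, 61.2 and 56.1 CPM in DMSO to 476, 488, 444 and 489 CPM at 3 h of IL-1 (3.02 ± 0.06, adjusted p = 4.9e-28). It reached 602, 589, 572 and 589.6 CPM at 9 h (3.16 ± 0.04, adjusted p = 1.8e-33). NFKB2, the precursor of the non-canonical pathway, rose by 2.72 ± 0.05 at 3 h and 3.18 ± 0.07 at 9 h, when its level was 607, 614.5, 609 and 601 CPM against 64.4 to 68.2 CPM in DMSO. RELB, the partner of processed NFKB2, was at 217, 252, 254.5 and 238 CPM at 3 h and 185, 188, 176 and 179 CPM at 9 h, against 27.8 to 31.5 and 36.7 to 42.1 CPM in DMSO. No library overlapped in any of these comparisons.

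Over time the 3 subunit genes parted. The IL-1 effect rose from 3 h to 9 h for NFKB2 by 0.50 ± 0.08 (adjusted p = 2.0e-06) and fell for RELB by 0.77 ± 0.10 (adjusted p = 7.0e-09). For NFKB1 it rose by 0.18 ± 0.06 (adjusted p = 0.017), a call lost in 4 of the 16 fits that left out 1 library (adjusted p 0.053 to 0.087). Part of the RELB change lay in the vehicle, where RELB was 0.37 ± 0.07 higher at 9 h than at 3 h (adjusted p = 0.00013). Under GSK101 the subunit genes rose modestly: NFKB1 by 0.51 ± 0.05 and 0.47 ± 0.04, RELB by 0.42 ± 0.07 and 0.41 ± 0.07, and NFKB2 by 0.30 ± 0.05 and 0.71 ± 0.06, at 3 h and 9 h. Of those, the NFKB2 effect was called larger at 9 h (0.45 ± 0.08, adjusted p = 1.0e-05). In all, the IL-1 effect differed between the times for 8 of the 10 genes (38.8% of all genes) and the GSK101 effect for 6 (45.8%).

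IRAK3, which restrains the receptor relay, responded to IL-1 late. At 3 h its level was 70.7, 62.3, 65.9 and 68.2 CPM with IL-1 and 64.8, 60.6, 67.4 and 53.9 CPM in DMSO. The ranges overlapped and the change was not called (0.13 ± 0.07, adjusted p = 0.17). At 9 h IL-1 libraries stood at 131, 117, 114 and 120.4 CPM and DMSO libraries at 35.1, 32.7, 36.8 and 37.1 CPM, a rise of 1.74 ± 0.06 (adjusted p = 3.7e-23). The IL-1 effect grew by 1.65 ± 0.09 between the times (adjusted p = 1.2e-21).

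Without a stimulus IRAK3 fell by 0.80 ± 0.06 from 3 h to 9 h in DMSO (adjusted p = 2.3e-14), where 3 of the 10 genes were called (22.2% of all), the others being RELB and NFKB1; NFKB1 (0.13 ± 0.05, adjusted p = 0.030) lost its call in 5 of the 8 fits that left out 1 library (adjusted p 0.052 to 0.16). GSK101 left IRAK3 slightly higher at 3 h (0.20 ± 0.07, adjusted p = 0.020) and slightly lower at 9 h, when its level was 28.9, 31.8, 30.9 and 29.5 CPM (-0.25 ± 0.06, adjusted p = 0.00041). The call at 3 h was lost without DMSO replicate 4 (0.14, adjusted p = 0.11) and without GSK101 replicate 1 or 3. The change of the GSK101 effect, -0.40 ± 0.09, was called (adjusted p = 2.0e-04).

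Marker levels moved with IL-1, with GSK101 and in some GSK205 and loading groups, and are given beside the results. The sum of 9 leukocyte markers was 93.4 to 103 CPM at 9 h of IL-1 against 32.4 to 40.3 CPM in DMSO, and 52.7 to 64.1 against 34.8 to 39.9 CPM at 3 h. CD14 made up most of it (86.3 to 94.8 CPM at 9 h of IL-1), while PTPRC, which encodes the pan-leukocyte antigen CD45, stayed between 0 and 0.148 CPM and LYZ and TYROBP were at 0. Fibroblast and synovial markers summed to 1083 to 1211 CPM at 9 h of IL-1 and 457 to 491 CPM in DMSO. With GSK101 at 9 h fibroblast and synovial markers summed to 543 to 567 CPM, endothelial markers to 5.21 to 5.97 CPM (DMSO 2.91 to 4.87) and cartilage markers to 71800 to 74380 CPM (DMSO 81760 to 86160). With GSK101 at 3 h cartilage markers summed to 118500 to 131400 CPM (DMSO 90270 to 110300) and leukocyte markers to 30.1 to 33.0 CPM. GSK205 libraries had cartilage markers at 68960 to 79480 CPM at 9 h, and fibroblast and synovial markers at 670 to 711 CPM at 3 h (DMSO 588 to 627). Loaded libraries at 9 h had fibroblast and synovial markers at 496 to 586 CPM. The part of the markers in the changes of the 10 genes was not tested.

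Cyclic loading changed fewer of the genes than IL-1 or GSK101 did. At 3 h it raised 3 of the 10 (10.2% of all genes called, 7.86% higher and 2.30% lower). IL1R1 was at 29.9, 33.1, 33.6 and 28.3 CPM in loaded constructs, all above DMSO (0.43 ± 0.08, adjusted p = 0.00030). NFKBIZ at 66.9, 60.4, 67.1 and 62.9 CPM also cleared DMSO (0.32 ± 0.06, adjusted p = 0.00046). NFKB1 was at 72.5, 69.8, 77.5 and 76.9 CPM with no overlap (0.34 ± 0.05, adjusted p = 4.2e-05).

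At 9 h, which is after the loading had ended, 4 of the 10 were called, 2 higher and 2 lower (23.7% of all genes, 12.5% higher and 11.2% lower). IL1R1 was still above every DMSO library at 31.7, 29.4, 32.0 and 33.1 CPM (0.35 ± 0.08, adjusted p = 0.0017). IRAK3 was lower at 23.6, 25.0, 25.8 and 22.4 CPM, below every DMSO library (-0.57 ± 0.06, adjusted p = 1.6e-08). NFKB1 (0.13 ± 0.04, adjusted p = 0.017) and NFKBIZ (-0.15 ± 0.05, adjusted p = 0.032) were called by small margins: NFKB1 lost its call without DMSO replicate 4 (0.11, adjusted p = 0.072), and NFKBIZ did so in 5 of the 8 fits that left out 1 library (adjusted p 0.055 to 0.17). NFKBIA, TNFAIP3, NFKB2 and RELB were called at neither time with all libraries and genes. At 9 h TNFAIP3 was called lower without DMSO replicate 4 (-0.23, adjusted p = 0.049) and with protein-coding genes alone (-0.21, adjusted p = 0.041), where NFKB1 lost its call (0.11, adjusted p = 0.053).

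The antagonist GSK205 alone raised some of the same genes. At 3 h it raised 3 of the 10 (27.1% of all genes called, 14.6% higher and 12.5% lower): NFKBIA by 0.26 ± 0.07, RELB by 0.31 ± 0.07 and IRAK3 by 0.23 ± 0.07. At 9 h it raised 5 (21.2% of all, 12.1% higher and 9.15% lower): RELB by 0.78 ± 0.07, NFKB2 by 0.44 ± 0.06, NFKB1 by 0.28 ± 0.04, NFKBIA by 0.26 ± 0.06 and NFKBIZ by 0.22 ± 0.05. RELB at 9 h was at 69.7, 61.7, 63.6 and 72.3 CPM with GSK205, far above its DMSO range (adjusted p = 2.4e-10). The share of all genes called at 3 h was close to that of the 10 genes. The IRAK3 call at 3 h was lost without DMSO replicate 4 (0.17, adjusted p = 0.077) or GSK205 replicate 2 (0.20, adjusted p = 0.055).

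GSK205 was also combined with loading, and the interaction asks whether the loading effect differed in its presence. At 3 h the interaction was called for 1 of the 10 genes (2.25% of all genes, 1.35% negative), IL1R1 (-0.53 ± 0.11, adjusted p = 0.0088). IL1R1 was at 22.4, 24.0, 19.4 and 22.1 CPM in constructs loaded with GSK205, below every library loaded without it (-0.51 ± 0.08, adjusted p = 1.9e-05), and at 22.4, 26.9, 21.8 and 23.0 CPM with GSK205 alone. Loading with GSK205 against GSK205 alone gave -0.10 ± 0.08 for IL1R1, so the loading rise of this receptor gene at 3 h was seen in the absence of the antagonist. The contrast of loading with GSK205 against loading called 3 genes at 3 h (15.3% of all, 7.11% higher and 8.16% lower), the others being NFKBIA (0.48 ± 0.07) and RELB (0.33 ± 0.07), both higher. IRAK3 was also called in the interaction at 3 h (-0.34 and adjusted p = 0.063 in all libraries) without DMSO replicate 1 or 3 or loading replicate 4 (adjusted p 0.020 to 0.042).

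At 9 h the interaction was called for 5 of the 10 genes (4.64% of all genes, 2.41% negative), each negative: RELB -0.52 ± 0.09 (adjusted p = 0.00078), NFKB2 -0.38 ± 0.09, NFKBIA -0.30 ± 0.09, NFKBIZ -0.28 ± 0.07 and NFKB1 -0.22 ± 0.06. For RELB the 4 groups were 36.7 to 42.1 CPM in DMSO, 34.7 to 43.3 with loading, 61.7 to 72.3 with GSK205 and 45.8 to 52.5 with both. Loading therefore went with a lower RELB level only in the GSK205 constructs (-0.49 ± 0.06, adjusted p = 2.0e-06), and the interaction tests that difference. The count fell to 3 without DMSO replicate 2, GSK205 replicate 1 or loading replicate 1, and NFKBIA lost its call in 11 of the 16 fits that left out 1 library (adjusted p 0.055 to 0.13). NFKBIZ lost its call without the same 3 libraries (adjusted p 0.051 to 0.073).

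In GSK205 constructs, loading changed 4 of the 10 genes at 3 h (11.9% of all genes, 7.58% higher and 4.35% lower) and 6 at 9 h (18.0%, 8.82% higher and 9.20% lower). At 3 h NFKBIZ, NFKB1 and RELB were higher by 0.26 ± 0.06, 0.24 ± 0.05 and 0.22 ± 0.07 and IRAK3 was lower (-0.42 ± 0.07). The RELB value was close to the threshold (adjusted p = 0.047) and was lost in 6 of the 8 fits that left out 1 library (adjusted p 0.086 to 0.14). At 9 h IL1R1 was higher (0.29 ± 0.08), and NFKBIA, NFKBIZ, NFKB2, RELB and IRAK3 were lower by -0.25 to -0.49. Loading with GSK205 against loading at 9 h called 2 (4.10% of all, 2.11% higher and 1.99% lower), RELB (0.27 ± 0.06) and IRAK3 (0.26 ± 0.06). Without loading replicate 4 or loading with GSK205 replicate 1 the RELB call was lost (adjusted p 0.053 and 0.082). The IL1R1 value at 9 h in GSK205 constructs was lost without GSK205 replicate 4 (0.22, adjusted p = 0.051) or loading with GSK205 replicate 2 (0.22, adjusted p = 0.073), and NFKBIA without GSK205 replicate 1 (-0.17, adjusted p = 0.051).

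Ordered by mean level over the 12 groups, each gene had its own ranking. IL1R2 ran from 28.6 ± 1.98 CPM at 9 h of GSK101, through 1.47 ± 0.11 at 3 h of GSK101 and 1.22 ± 0.24 at 9 h of IL-1, whose ranges overlap, to 0.385 ± 0.14 at 3 h of IL-1 and 8 groups between 0.101 and 0.245 CPM that overlap one another in sequence. IL1R1 had GSK101 at 9 h on top (45.3 ± 3.72 CPM), IL-1 at 9 h at the bottom (11.9 ± 0.63), and between them groups of 21.2 to 31.5 CPM, each overlapping the next in order. NFKBIZ had 4 separate upper levels, 1293 ± 31.2 and 1157 ± 24.3 CPM with IL-1 at 3 h and 9 h and 227.5 ± 5.94 and 89.6 ± 4.23 CPM with GSK101, each clear of the next. NFKBIA had 1242 ± 24.6 and 1025 ± 47.4 CPM with IL-1 at 9 h and 3 h, then GSK101 at 102 ± 7.29 and 90.0 ± 6.42 CPM, which overlap.

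IRAK3 was ranked mostly by time. After IL-1 at 9 h (120.5 ± 7.32 CPM) came the 3 h groups, at 54.0 to 71.9 CPM, and then the remaining 9 h groups, at 24.2 to 36.7 CPM, with a gap between the sets. The lowest was loading at 9 h (24.2 ± 1.52 CPM), clear of loading with GSK205 above it (29.1 ± 0.62).

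As a description over those 12 group means, which share their vehicle, kit and culture, NFKBIA, NFKBIZ, TNFAIP3, NFKB1, NFKB2 and RELB had pairwise Pearson correlations of mean log2 CPM from 0.89 to 0.99. IL1R2 correlated with NFKBIA at 0.30 and with its co-receptor gene IL1RAP at 0.80, and IL1R1 with NFKBIA at -0.66. Among 13750 genes, the closest profiles to IL1R2 were those of PTPRE (0.977), TM4SF1 (0.976) and ANXA1 (0.976). IL1R2 averaged 28.6 CPM with GSK101 at 9 h and 0.101 to 1.47 CPM in the other groups. Its correlations therefore rest largely on the GSK101 group at 9 h. The closest to NFKBIA were CXCL2 (0.993), ZC3H12A (0.992) and TNFAIP3 (0.990), and to IRAK3 CGNL1 (0.987), PREX1 (0.984) and SNTB1 (0.955).

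The other genes of the pathway were read in 6 lists beside the 10. Upstream of NF-kB, little of the receptor relay moved together: with IL-1 at 3 h 3 of the 10 tested relay genes rose and 3 fell (18.5% and 13.7% of all genes), among them IRAK2 (1.31), MYD88 (0.99) and TAB2 (-0.39). The relay counts were again 3 and 3 at 9 h of IL-1, near the background of 30.6% higher and 34.5% lower, with IRAK2 at 1.38, TAB1 at -1.15 and MYD88 at 0.92. GSK101 gave 4 higher and 2 lower at 3 h (22.0% and 18.0% of all genes) and 4 and 4 at 9 h (29.3% and 33.0%), with IRAK2, the kinase that sustains the relay, lower at both times (-0.70 and -0.65). The list medians lay between -0.08 and 0.06, against -0.07 to 0.01 over all genes. The same shares of all genes are the background of the list counts that follow.

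Of the IL-1 family ligands and other receptors, 3 were tested at 3 h and 4 at 9 h. IL18 was called with IL-1 at both times (0.67 and 2.73) and with GSK101 at 9 h (2.15). With IL-1 at 9 h IL1A, which encodes IL-1 alpha, rose by 4.32, and SIGIRR, an inhibitory receptor of the family, changed by -1.996. IL1RN, which encodes the receptor antagonist, was not analysed here.

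Among the 7 kinase-level genes, 5 rose and none fell at 3 h of IL-1 (median 1.05), led by MAP3K8 (4.34), TRAF2 (2.12) and IKBKB (1.30), the gene of a catalytic IkB kinase. At 9 h of IL-1 6 rose and 1 fell (median 1.62; MAP3K8 4.66, TRAF3 1.68, IKBKB 1.62). GSK101 raised 4 and lowered 2 at 3 h (median 0.24; MAP3K8 0.88, MAP3K14 0.45, TRAF3 0.39) and raised 4 and lowered 1 at 9 h (median 0.77; MAP3K8 1.61, MAP3K14 1.07, IKBKB 0.99).

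The other subunits and IkB proteins numbered 6 and moved with the members of the same kind. IL-1 raised all 6 at 3 h (median 2.62; BCL3 3.82, NFKBIE 3.04, NFKBID 2.63) and at 9 h (median 2.05; REL 3.03, BCL3 2.74, NFKBIE 2.28). GSK101 raised 6 at 3 h (median 0.75) and 5 at 9 h (median 0.97), and its leading gene was REL, the c-Rel subunit, at 1.76 and 1.77.

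Of the other genes that end NF-kB signalling, IL-1 raised 10 of 10 tested at 3 h (median 0.55) and 10 of 11 at 9 h (median 0.62). ZC3H12A, which encodes an RNase that degrades inflammatory mRNAs, was at 5.38 and 5.28 and the A20-binding TNIP3 at 5.93 at 9 h. GSK101 raised 7 and lowered 1 at 3 h (median 0.22) and raised 8 and lowered 1 at 9 h (median 0.30); ZC3H12A was at 0.63 and 0.45. The row named BIRC3, which was at 3.57 and 3.53 with IL-1 and at 0.93 and 1.17 with GSK101, carries the description of BIRC2 in the table and is uncertain.

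The 14 output genes of NF-kB in this tissue rose without exception at 3 h of IL-1 (median 4.84; IL6 7.27, CXCL2 7.11, LIF 6.90) and at 9 h (median 6.86; IL6 10.07, CCL20 9.32, CXCL8 8.50). GSK101 also raised all 14 at 3 h, with a median of 0.85 and with PTGS2 (4.52), the inducible cyclooxygenase, LIF (4.22) and IL6 (2.97) in front. At 9 h of GSK101 12 rose and 2 fell (median 1.43; PTGS2 4.32, LIF 3.80, CCL2 2.63, VCAM1 -1.18, NOS2 -0.36). Median changes over all genes tested in the 4 comparisons lay between -0.07 and 0.01.

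**Figure D4:**
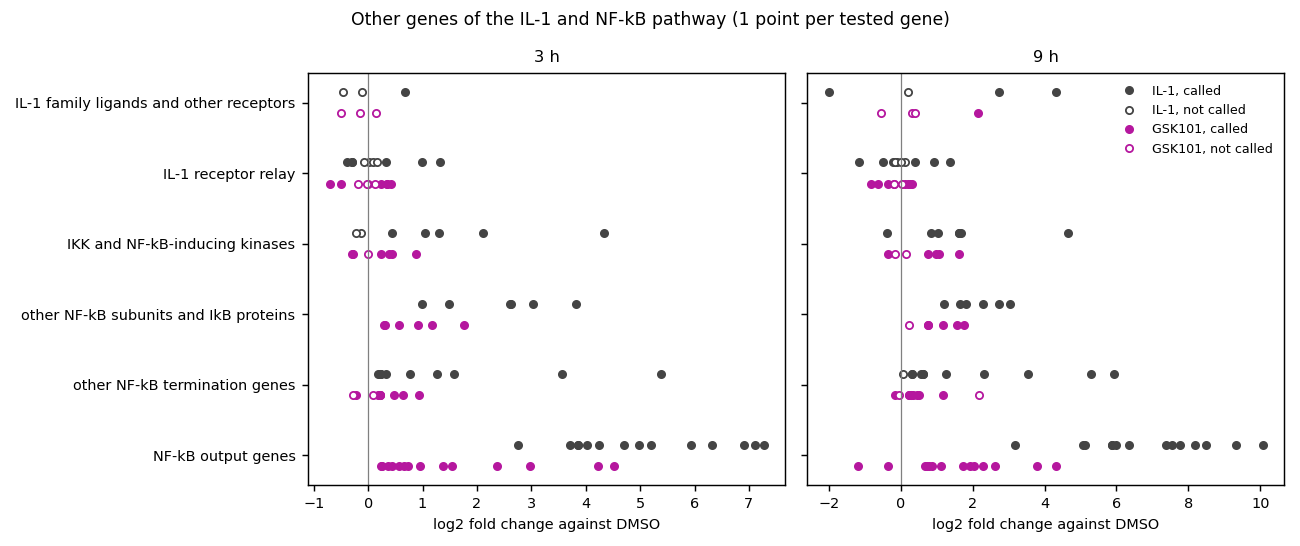
Log2 fold change against DMSO (x axis) of each tested gene in 6 lists of other IL-1 and NF-kB pathway genes (rows), at 3 h (left) and 9 h (right), for IL-1 (dark grey) and GSK101 (purple), with filled points for called genes. IL-1 points of the output genes lie from 2.75 up to 10.07, while the relay genes lie on both sides of 0, from -1.15 to 1.38.

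Loading called genes in several of these lists. Of all genes, 7.86% were called higher and 2.30% lower at 3 h, and 12.5% higher and 11.2% lower at 9 h. At 3 h it raised 2 of 14 output genes (LIF 2.09, PTGS2 1.32), 2 of 6 subunit and IkB genes (BCL3 0.73, NFKBIE 0.26), 1 of 7 kinase-level genes (MAP3K8 0.54) and 4 of 10 termination genes, with the BIRC3 row at 0.37. At 9 h it raised 6 and lowered 1 of the 14 output genes, led by CCL2 (0.74), CXCL8 (0.67) and MMP13 (0.46), while BCL3 changed by -0.51.

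The PIEZO1 experiment was read with its knockdown checked first. In vehicle at 3 h the PIEZO1 gene was at 5.64 ± 1.53 CPM in siNTC and 4.72 ± 0.43 CPM in the libraries labelled siPIEZO1 (-0.24 ± 0.19, adjusted p = 0.58). At 9 h it was at 5.52 ± 1.30 and 3.46 ± 1.11 CPM (-0.66 ± 0.23, adjusted p = 0.062), so a lower level was called in vehicle at neither time. PIEZO1 was not tested in the stimulated groups, where its mean was also lower in siPIEZO1. With Yoda1 it was at 5.74 to 9.34 CPM in siNTC and 4.16 to 5.62 in siPIEZO1 at 3 h. At 9 h of Yoda1 it was at 5.26 to 7.21 and 3.69 to 4.55 CPM. After compression the ranges overlapped, at 4.87 to 7.16 and 3.62 to 6.11 CPM at 3 h and 5.58 to 8.66 and 3.97 to 5.90 CPM at 9 h. A single library stood apart: replicate 1 of siPIEZO1 vehicle at 3 h held 15.7 CPM of NFKBIA where its group otherwise had 102 to 111 CPM, and 10.1 CPM of NFKB2 against 27.8 to 31.3 CPM. Markers shifted with transfection as well. Fibroblast and synovial markers in vehicle at 3 h summed to 9200 to 10810 CPM in NT, 3963 to 5052 in siNTC and 1655 to 2178 in siPIEZO1, and cartilage markers to 31940 to 35760, 26320 to 27170 and 14820 to 20820 CPM, and their part in the differences between transfection groups was not tested.

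A single compression of non-transfected constructs raised 7 of the 10 genes within 3 h (6.27% of all genes called, 4.18% higher), and by 9 h only the decoy receptor gene was called. TNFAIP3 had the clearest rise. Its level was 16.8, 21.3, 20.1 and 21.1 CPM in vehicle and 62.3, 57.2, 39.8 and 39.8 CPM after compression, without overlap (1.32 ± 0.14, 2.49-fold, adjusted p = 1.4e-08). NFKBIZ went from 7.14, 3.44, 6.10 and 5.42 CPM to 17.8, 16.6, 11.3 and 7.46 CPM, where the lowest compressed library was barely above the highest vehicle one (1.25 ± 0.22, adjusted p = 0.00026). NFKBIA was at 29.6, 38.5, 34.5 and 61.1 CPM in vehicle and at 139, 144, 89.1 and 57.0 CPM after compression; the lowest compressed library, replicate 4, lay below the highest vehicle library (1.38 ± 0.34, adjusted p = 0.0095).

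The receptor genes rose together at 3 h of compression. IL1R2 went from 7.46, 11.7, 13.3 and 16.1 CPM to 28.6, 19.6, 21.9 and 22.0 CPM, without overlap (0.91 ± 0.19, adjusted p = 0.0022). IL1RAP went from 25.9, 25.8, 29.4 and 39.9 CPM to 45.8, 51.7, 43.6 and 52.8 CPM (0.67 ± 0.15, adjusted p = 0.0032). IL1R1 was at 56.9, 60.6, 70.5 and 100.8 CPM in vehicle and 105, 99.9, 108 and 121 CPM after compression, with replicate 4 of vehicle inside the compressed range (0.58 ± 0.14, adjusted p = 0.0095). NFKB1 rose by 0.48 ± 0.14 (adjusted p = 0.035), and NFKB2 (0.55 ± 0.23, adjusted p = 0.16), RELB (0.28 ± 0.37) and IRAK3 (0.34 ± 0.17) were not called.

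Single libraries mattered to some of these calls. Without vehicle replicate 1, 4 of the 10 remained called: IL1R1 (0.47, adjusted p = 0.078), NFKBIA (1.25, adjusted p = 0.057) and NFKB1 (0.45, adjusted p = 0.12) lost theirs. IL1R1 also lost its call without vehicle replicate 2 or compression replicate 4 (adjusted p 0.071 and 0.051), NFKBIA without compression replicate 2 (adjusted p = 0.050), and NFKB1 without vehicle replicate 2 or compression replicate 1 or 2 (adjusted p 0.11 to 0.19).

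At 9 h of compression 1 of the 10 was called (3.51% of all genes). IL1R2 was at 12.5, 7.62, 13.4 and 14.1 CPM in vehicle and 11.6, 28.0, 32.1 and 27.2 CPM after compression, so replicate 1 did not share the rise (1.04 ± 0.19, adjusted p = 0.0015). In a fit of those 2 groups alone it was not called (adjusted p = 0.053). NFKBIA (0.87 ± 0.26, adjusted p = 0.052) and IRAK3 (-0.53 ± 0.17, adjusted p = 0.074) were near the threshold, and DESeq2 called 4 of the 10, IL1R2, NFKBIA, IRAK3 and IL1RAP. Leukocyte markers summed to 14.5 to 53.5 CPM after compression and 10.1 to 12.5 CPM in vehicle at 9 h; their part in this result was not tested.

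**Figure D5:**
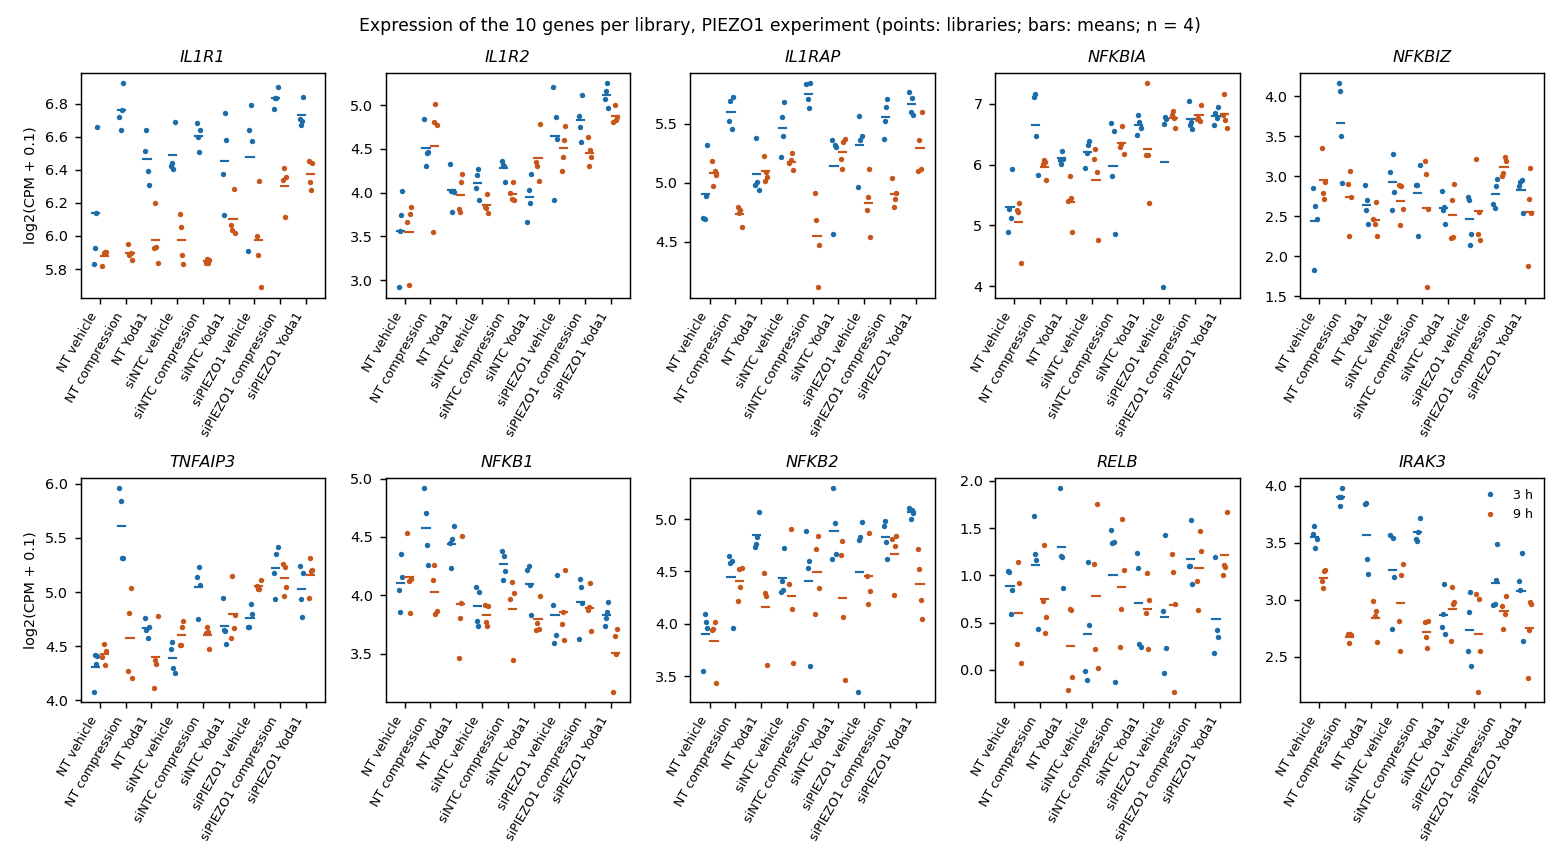
Level of each of the 10 genes (panels) in each library of the PIEZO1 experiment, as log2 of CPM with 0.1 added (y axis, separate scales), by transfection and stimulus (x axis) at 3 h (blue) and 9 h (orange), with bars at group means (n = 4). In NT cells TNFAIP3 after compression at 3 h lies between 39.8 and 62.3 CPM, above its vehicle, and the single low NFKBIA point of siPIEZO1 vehicle at 3 h is the library at 15.7 CPM.

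Of the other pathway lists, compression of NT constructs at 3 h raised 10 of 14 output genes (4.18% of all genes; median 1.29; PTGS2 2.61, CXCL2 2.44, CXCL8 2.35), the kinase gene MAP3K8 (1.05) and 2 of 10 termination genes, the BIRC3 row (0.96) and CYLD (0.67). None of the 10 relay genes and none of the 6 other subunit and IkB genes was called. At 9 h 2 output genes were called higher, CXCL8 (0.82) and MMP3 (0.68), the latter in a gene model that also covers MMP1, and TAX1BP1 was lower (-0.27).

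In siNTC constructs the same compression called 1 of the 10 at 3 h (0.911% of all genes), again TNFAIP3, from 22.1, 23.1, 19.6 and 18.9 CPM to 35.1, 26.8, 37.6 and 33.4 CPM (0.66 ± 0.14, adjusted p = 0.0076). It lost its call without siNTC compression replicate 3 or siNTC vehicle replicate 4 (adjusted p 0.060 and 0.058). At 9 h 1 was called (6.43% of all), IL1RAP, lower by -0.61 ± 0.12 (adjusted p = 0.0022). Whether the compression effect differed between siNTC and NT was tested after the data were seen. Here and below, a share of all genes is of edgeR calls at an adjusted p under 0.05. Counts at an unadjusted p and counts by DESeq2 have other backgrounds and cannot be set against that share. By edgeR no gene of the 10 was called at 3 h (0.0927% of all; 5 at an unadjusted p under 0.05, 1 by DESeq2) or at 9 h (0.0376%; 1 at an unadjusted p under 0.05, 0 by DESeq2). The largest differences at 3 h were for NFKBIA (-1.46 ± 0.48, adjusted p = 0.40) and NFKBIZ (-1.38 ± 0.31, adjusted p = 0.088). NFKBIZ was called without NT compression replicate 4 (-1.59, adjusted p = 0.0082) or siNTC vehicle replicate 2 (-1.50, adjusted p = 0.048), and at 9 h IL1R2 was called without NT compression replicate 1 (-1.16, adjusted p = 0.012).

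In siPIEZO1 constructs edgeR called none of the 10 for compression at 3 h (0.600% of all genes; 3 at an unadjusted p under 0.05, 1 by DESeq2) or at 9 h (2.18%; 1 unadjusted, 1 by DESeq2). At 9 h IL1R1 (0.31, adjusted p = 0.069) was called without compression replicate 3 (0.38, adjusted p = 0.039) or vehicle replicate 3 (0.45, adjusted p = 0.0026). The interaction of siPIEZO1 with compression, against siNTC, was called for none at 3 h (0% of all genes; 0 unadjusted, 0 by DESeq2). At 9 h it was called for IL1RAP alone (1.09% of all; 0.68 ± 0.17, adjusted p = 0.037), a call lost in 11 of the 16 fits that left out 1 library (adjusted p 0.050 to 0.12), while IL1R1 was called without siPIEZO1 vehicle replicate 3 (0.58, adjusted p = 0.0091). The levels of PIEZO1 above limit what these contrasts can say about the channel.

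With Yoda1 most changes of the 10 genes were not called. The shares of all genes in brackets are again of adjusted edgeR calls. The share of all genes at an unadjusted p under 0.05 is not given, so the unadjusted counts have no background beside them. DESeq2 called 230 genes in all for Yoda1 in NT at 3 h. In NT constructs edgeR called none at 3 h (0.409% of all genes; 6 at an unadjusted p under 0.05, 1 by DESeq2) or 9 h (0% of all; 3 unadjusted, 0 by DESeq2). NFKB2 came nearest at 3 h, from 11.6, 16.98, 16.1 and 15.5 CPM in vehicle to 26.5, 27.0, 28.3 and 33.3 CPM, without overlap (0.93 ± 0.23, adjusted p = 0.052), and it was called by DESeq2, without NT vehicle replicate 4 (0.95, adjusted p = 0.040) and under 4 other alternatives (adjusted p 0.0030 to 0.047). Without NT vehicle replicate 4 IL1R1 was called as well (0.50, adjusted p = 0.046). Of the output genes, PTGS2 was called at 3 h (1.06). In siNTC none of the 10 was called at 3 h (5.40% of all; 4 unadjusted, 0 by DESeq2) or 9 h (0%; 2 unadjusted, 0 by DESeq2).

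In siPIEZO1 constructs Yoda1 called none at 3 h (0.262% of all; 2 unadjusted, 0 by DESeq2) and 2 at 9 h (2.54% of all), IL1RAP (0.47 ± 0.12, adjusted p = 0.027) and IL1R1 (0.38 ± 0.09, adjusted p = 0.021). Both lost their calls without siPIEZO1 Yoda1 replicate 2 or 4 or siPIEZO1 vehicle replicate 2 or 4 (adjusted p 0.057 to 0.18), IL1R1 also without Yoda1 replicate 1 (adjusted p = 0.055) and IL1RAP also without vehicle replicate 1 (adjusted p = 0.057). The interaction of siPIEZO1 with Yoda1 was called for none at 3 h (0.938% of all; 4 unadjusted, 1 by DESeq2) or 9 h (0.0269%; 1 unadjusted, 0 by DESeq2). The gene called by DESeq2 at 3 h was IRAK3 (0.76, adjusted p = 0.045, against 0.77 and adjusted p = 0.13 by edgeR).

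The siNTC and NT vehicle groups differed for few of the genes. Against NT in vehicle, siNTC raised IL1RAP at 3 h (0.55 ± 0.15, adjusted p = 0.013), 1 of the 10 (7.53% of all genes). That call was lost without NT vehicle replicate 1 or 2 or siNTC vehicle replicate 4 (adjusted p 0.062 to 0.071), while without NT vehicle replicate 4 the count rose to 4. None was called at 9 h (5.30%; 2 unadjusted, 0 by DESeq2), though NFKBIA was without siNTC vehicle replicate 4 (0.99, adjusted p = 0.0100). NT vehicle at 9 h against 3 h also called none (16.1%; 2 unadjusted, 0 by DESeq2), though IL1R1 was without NT vehicle replicate 1 at 3 h (-0.39, adjusted p = 0.037).

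The libraries labelled siPIEZO1 held more IL1R2, NFKBIA and TNFAIP3 than siNTC in vehicle at 9 h, 3 of the 10 (10.8% of all genes). NFKBIA was at 112, 118, 109 and 97.6 CPM against 68.0, 76.5, 58.5 and 27.0 CPM (0.93 ± 0.26, adjusted p = 0.014). TNFAIP3 was at 33.2, 32.5, 32.5 and 34.5 CPM against 22.6, 22.7, 25.4 and 26.5 CPM (0.45 ± 0.14, adjusted p = 0.034), and IL1R2 at 19.0, 21.1, 24.3 and 27.1 CPM against 14.2, 14.1, 15.8 and 13.5 CPM (0.67 ± 0.19, adjusted p = 0.018). The groups did not overlap for any of the 3, which were named here because they were called. The share of all genes without overlap is not given. Fibroblast and synovial markers in vehicle at 9 h summed to 2063 to 2252 CPM in siPIEZO1 and 5147 to 5874 in siNTC. Cartilage markers summed to 18380 to 23020 and 23510 to 36020 CPM. The part of the markers in these differences was not tested.

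The calls of siPIEZO1 against siNTC were close to the threshold. NFKBIA lost its call without siNTC vehicle replicate 4 (0.69, adjusted p = 0.093), IL1R2 without that library or siPIEZO1 vehicle replicate 4 (adjusted p 0.057 and 0.075), and TNFAIP3 in 7 of the 8 fits that left out 1 library (adjusted p 0.050 to 0.087). At 3 h only IL1R2 was called (5.07% of all; 0.62 ± 0.19, adjusted p = 0.047), and it lost its call in 7 of the 8 fits that left out 1 library, among them the fit without the library that stood apart (0.42, adjusted p = 0.19).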

How the data were processed

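The deposited table holds whole-number read counts per gene, made by the authors with Trim Galore, STAR and HTSeq on Sscrofa11.1, per the submitters' processing notes. The strandedness of the counting is, like each tool version, not given in the sources used here. The labels call the RNA polyA, while the protocols describe ribosomal RNA depletion for the TRPV4 libraries and a low-input kit with 10 ng of RNA for the PIEZO1 libraries, which can change which transcripts are counted. The titles say transduced and the protocol transfected. Of 32388 lines, 481 repeats of an identifier were dropped, leaving 31907. Small counts were more often even than odd (52.3% to 74.8% of the counts from 1 to 20 in a library were even), and the cause was not tested.

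Samples were grouped by their labels. R 4.3.3 with edgeR 4.0.16 fitted a quasi-likelihood model for each experiment and time over all its groups (TMM scaling, filterByExpr with a minimum count of 10), testing 16562, 16540, 18330 and 18611 genes; models over both times tested 17447 and 20202. P-values were adjusted over all genes tested by the Benjamini-Hochberg method. The receptor ratio used an exact permutation test over libraries. The 10 genes and the lists were chosen with earlier results of these data known. Named genes are the 10 members in full and, of each pathway list, the 3 called genes with the largest change, others being named for their role after their values were seen; the 3 genes closest in profile were taken by Pearson correlation of group means. Gene positions are from the RefSeq table of the same build. The scripts were tested on simulated data. No pair of libraries of a group agreed within sampling noise (lowest chi-square per degree of freedom 5.49 in the TRPV4 and 12.5 in the PIEZO1 experiment).

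Alternatives were DESeq2 1.42.0 with its size factors, no low-count filter, the groups of a contrast alone, protein-coding genes alone, the replicate number as a block, each library left out in turn, another pseudocount for the ratio, and, added after the data were seen, thinned libraries and a pair of contrasts of the compression effect between siNTC and NT.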

Additional observations from a re-analysis of the deposited data

Results flagged for a closer look

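In 300 sets of 4 libraries (10 genes in 30 groups), 15 held a library far from the rest of its group by Dixon's criterion (its gap to the nearest library over the group's range, against the 95% critical value); chance gives about 1 in 20. In the TRPV4 experiment these were IL1R1 with GSK205 at 9 h, replicate 4 (21.4 CPM, the rest 26.1 to 26.6), RELB in DMSO at 9 h, replicate 2 (42.1 CPM, the rest 36.7 to 37.4), and NFKBIA with IL-1 at 9 h, replicate 4 (1205 CPM, the rest 1253 to 1257).

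In siPIEZO1 vehicle at 3 h, replicate 1 was far below the rest for both NFKBIA (15.7 CPM, the rest 102 to 111) and NFKB2 (10.1 CPM, the rest 27.8 to 31.3). Among NT libraries, NFKB2 was low in compression replicate 4 at 3 h (15.5 CPM, the rest 23.9 to 25.0) and in vehicle replicate 4 at 9 h (10.7 CPM, the rest 15.3 to 16.1). IL1RAP was high in NT Yoda1 replicate 2 at 3 h (41.5 CPM, the rest 30.6 to 32.1), IL1R1 low in NT vehicle replicate 1 at 9 h (56.3 CPM, the rest 59.4 to 59.7) and IRAK3 low in NT compression replicate 2 at 9 h (6.04 CPM, the rest 6.38 to 6.39).

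Among siNTC libraries, IL1R1 was high in vehicle replicate 4 at 3 h (103 CPM, the rest 84.7 to 86.8) and in Yoda1 replicate 3 at 9 h (77.8 CPM, the rest 64.8 to 66.9). RELB was low in siNTC compression replicate 4 at 3 h (0.811 CPM, the rest 2.43 to 2.69) and IL1RAP in siNTC Yoda1 replicate 2 at 3 h (23.6 CPM, the rest 39.3 to 41.1). RELB was high in siPIEZO1 Yoda1 replicate 4 at 9 h (3.10 CPM, the rest 1.91 to 2.05).

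Effects that differed between groups by edgeR's test of the difference were these, on the log2 scale. The loading effect was lower with GSK205 than without it for IL1R1 at 3 h (-0.53) and at 9 h for RELB (-0.52), NFKB2 (-0.38), NFKBIA (-0.30), NFKBIZ (-0.28) and NFKB1 (-0.22). The IL-1 effect at 9 h less that at 3 h was 1.65 for IRAK3, 1.201 for IL1RAP, 0.50 for NFKB2, 0.40 for NFKBIA, 0.18 for NFKB1, -0.54 for TNFAIP3, -0.77 for RELB and -0.91 for IL1R1. The same difference for GSK101 was 3.81 for IL1R2, 0.66 for IL1R1, 0.62 for IL1RAP, 0.45 for NFKB2, -0.40 for IRAK3 and -1.31 for NFKBIZ. The compression effect on IL1RAP at 9 h was higher by 0.68 in siPIEZO1 than in siNTC.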

How the results depend on the processing

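No result changed direction. The values here are counts of the 10 genes called, with the reported count in brackets. DESeq2 gave 2 (1) for the interaction of loading and GSK205 at 3 h, siPIEZO1 against siNTC at 3 h and the interaction of siPIEZO1 and compression at 9 h, 4 (1) for compression in NT at 9 h, and 1 (0) for Yoda1 in NT at 3 h, compression in siPIEZO1 at 3 h and 9 h, the interaction of siPIEZO1 and Yoda1 at 3 h and the compression effect in siNTC against NT at 3 h. Without a low-count filter loading at 9 h gave 2 (4), Yoda1 in NT at 3 h 1 (0), siPIEZO1 against siNTC at 3 h 0 (1) and compression in NT at 9 h 2 (1). With the groups of the contrast alone Yoda1 in NT at 3 h gave 2 (0), siNTC against NT at 3 h 3 (1), siPIEZO1 against siNTC at 3 h 0 (1), Yoda1 in siPIEZO1 at 9 h 0 (2) and the interaction of siPIEZO1 and compression at 9 h 0 (1). With protein-coding genes alone Yoda1 in NT at 3 h gave 1 (0) and compression in NT at 9 h 2 (1). The number of all genes called moved with the setting as well. With the groups of the contrast alone it was 2 for Yoda1 in siPIEZO1 at 9 h (472 reported) and 244 for siPIEZO1 against siNTC at 3 h (929). It was 44 for the interaction of siPIEZO1 and compression at 9 h (202), 210 for Yoda1 in NT at 3 h (75) and 1878 for siNTC against NT at 3 h (1381). DESeq2 called more genes in all than edgeR in each contrast named for it. The cause of these changes was not tested.

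Leaving out 1 library at a time gave 1 to 2 for the interaction of loading and GSK205 at 3 h and 3 to 5 at 9 h, 1 to 2 for loading with GSK205 against loading at 9 h, and 4 to 7 for compression in NT at 3 h. It gave 0 to 2 for Yoda1 in NT at 3 h, Yoda1 in siPIEZO1 at 9 h and the interaction of siPIEZO1 and compression at 9 h, 0 to 4 for siNTC against NT at 3 h and 1 to 3 for siPIEZO1 against siNTC at 9 h. It gave 0 to 1 for compression in siNTC at 3 h, siPIEZO1 against siNTC at 3 h, compression in siPIEZO1 at 9 h, siNTC against NT at 9 h, NT vehicle over time and the compression effect in siNTC against NT at both times. The IL-1 ratio difference at 3 h ranged from 0.97 to 1.46, and with 5 added to each count it was 0.66 (exact permutation p = 0.11).

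Nothing in the labels says that a replicate number marks a shared source, and same-numbered libraries deviated together too little to be treated as pairs (median correlations 0.0012 to 0.0072 in the 4 models). In the PIEZO1 experiment at 9 h 47.2% of libraries were nearest to one of their own number, where numbers without meaning would give about 25%, a hint from the data and not from the design; the other models had 25% to 33.3%. With the number as a block, Yoda1 in NT at 3 h gave 1 (0), siPIEZO1 against siNTC at 3 h 0 (1), compression in NT at 9 h 2 (1) and siNTC against NT at 9 h 1 (0). Compression in NT at 9 h called 1043 genes in all with the block and 653 without, and NFKBIA there had adjusted p = 0.0050. RELB (loading with GSK205 against GSK205 at 3 h, adjusted p = 0.060) and NFKB1 (DMSO at 9 h against 3 h, adjusted p = 0.098) were not called with the block. Paired, the ratio differences of 2.75, 1.62, 3.42, 6.04 and 2.62 had exact permutation p = 0.125, the smallest that 4 pairs allow.

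Depth limits IL1R2 in unstimulated TRPV4 libraries, where 0 to 12 reads stand behind each value, and the wider spread of the PIEZO1 libraries limits calls there.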
